A study of Mus musculus with 29 samples.

Results

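The ABC transporter family was followed in hematopoietic stem and multipotent progenitor cells of WT mice and of mice that carry one copy of a chromosomal deletion. Members were all genes of the deposited table with a symbol made of Abc, a subfamily letter from a to g, a number and at most 1 further letter, which gave 50 of 30025 genes. Tap1, Tap2 and Cftr encode ABC proteins under other symbols and are not members. The members divide into 16 Abca, 10 Abcb, 10 Abcc, 4 Abcd, 1 Abce, 3 Abcf and 6 Abcg genes.

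RNA-Seq was performed on 29 libraries from 10 mice of the C57BL/6J strain, of which 5 were WT (labelled WT/WT) and 5 were 5A3+/del (labelled WT/DEL). The 5A3+/del mice are heterozygous for a germ line deletion between Fbxl13 and Srpk2 on chromosome 5, in a region syntenic to human 7q22, and all their tissues carry it. The mice were 12.42 to 13.85 weeks of age. Bone marrow cells negative for lineage markers, CD41 and CD48 and positive for c-kit and Sca-1 were sorted by CD150 into CD150hi HSC, CD150lo HSC and CD150neg HSC, the last of which the study calls MPP. Each group held 5 libraries, except 5A3+/del CD150neg HSC with 4, and an animal code in the labels ties the libraries of the 3 populations to one mouse. The deletion was produced in embryonic stem cells, so the mice model the loss of one copy in every cell and not a deletion acquired in blood cells. From each sorted population, 10 ng of total RNA was amplified before sequencing, and what share of the spread is technical cannot be told apart from the spread between mice.

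ABC proteins share an ATP-binding cassette, a domain that binds and hydrolyses ATP. In most members it drives the movement of a substrate across a membrane: drugs, dyes and conjugates in the Abcb, Abcc and Abcg subfamilies, lipids in Abca, Abcd and part of Abcg, whereas the proteins of the Abce and Abcf subfamilies have no membrane domain and act on ribosomes and translation. In bone marrow the family is best known for the side population, cells that stay dim because they export the dye Hoechst. Abcg2, the breast cancer resistance protein, is the main exporter of that dye in mouse marrow, and the Abcb1a and Abcb1b products, the P-glycoproteins, export it together with the mitochondrial dye rhodamine.

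The deposited unit is FPKM, which scales the fragments of a gene by the length of its exons and the depth of the library, so levels can be compared between genes per length. Behind it stood 21229490 to 38797569 fragments per library, and 17346 to 23588 genes were above 0. A value of 3 fragments was taken as the floor of detection, which covers counting error only. The sorted cells were checked by their markers. Slamf1, which encodes CD150, lay between 9.97 and 22.6 FPKM in CD150hi HSC, between 0.180 and 2.64 in CD150lo HSC and at 0.296 or less in CD150neg HSC. Kit and Ly6a were high in every library, Flt3 rose from a median of 3.13 FPKM in CD150hi HSC to 46.7 in CD150neg HSC, and the summed B cell, T cell and erythroid markers did not exceed 3.45, 1.09 and 5.48 FPKM. The genes of the negative gates were not absent. In CD150hi, CD150lo and CD150neg HSC, Cd48 ran from 0 to 2.17, 1.04 to 6.51 and 3.18 to 10.5 FPKM. Itga2b, which encodes CD41, ran from 1.54 to 8.53, 0.836 to 3.02 and 1.16 to 2.89 FPKM. The summed granulocyte and macrophage markers reached 295 FPKM, mostly from Lyz2 (148 to 254), whereas Csf1r was at 1.59 or less. Elane reached 27.7, Mpo 19.7 and Itgam 16.3 FPKM, with population medians of at most 3.85, 4.11 and 10.0. The part of granulocytes and macrophages in the results was not tested. The summed megakaryocyte markers ran from 22.7 to 58.4 FPKM over all libraries, mostly from Pf4 and Gp9, with medians of 32.6, 39.2 and 35.4 in CD150hi, CD150lo and CD150neg HSC, and the part of these cells in the results was not tested. In the deleted interval, 10 genes passed the filter on low values, and their median ratio of 5A3+/del to WT was 0.542, 0.545 and 0.456 in the 3 populations, against 0.997, 1.01 and 0.995 for the other genes. The 3 libraries of WT mouse 3 had Xist at 234 to 319 FPKM, against at most 0.470 in the other mice. Their summed Y-linked genes were at 0.0222 to 0.124 FPKM, against 51.4 to 71.4 in the other mice. By these genes WT mouse 3 was female and the other mice were male. Sex was not a covariate in the fits, and its part in the genotype comparisons was not tested. Replicate 2 of WT CD150hi HSC and replicate 1 of 5A3+/del CD150hi HSC stood apart from their groups, with a median correlation of 0.896 and 0.879 to the other libraries of the group, against 0.921 to 0.950 for the remaining libraries.

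Abcg2 lies on chromosome 6 (58534517 to 58642863, plus strand, mm9), and the RefSeq annotation of GRCm38.p6 gives it 3 start sites. The gene-level FPKM sums all of them and does not say which was used. The windows from 250 bases before to 50 bases after the start are shown for the 2 start sites that held a searched motif, with the motifs in capitals.
Abcg2 start site window, GRCm38.p6 chr6:58596422-58596721, plus strand: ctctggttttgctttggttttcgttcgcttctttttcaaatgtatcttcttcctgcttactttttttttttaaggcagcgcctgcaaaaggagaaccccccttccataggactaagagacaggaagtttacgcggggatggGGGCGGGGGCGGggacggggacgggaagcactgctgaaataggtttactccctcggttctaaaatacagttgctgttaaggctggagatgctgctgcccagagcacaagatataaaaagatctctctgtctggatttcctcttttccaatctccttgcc
Abcg2 start site window, GRCm38.p6 chr6:58640296-58640595, plus strand: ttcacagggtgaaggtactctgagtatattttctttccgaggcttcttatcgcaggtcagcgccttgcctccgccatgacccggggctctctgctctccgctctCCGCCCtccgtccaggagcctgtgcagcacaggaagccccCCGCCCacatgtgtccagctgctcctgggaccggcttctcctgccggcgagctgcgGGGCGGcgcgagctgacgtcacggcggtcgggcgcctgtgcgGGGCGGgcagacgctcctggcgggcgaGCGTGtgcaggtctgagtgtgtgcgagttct
The capitals mark GGGCGG, the GC box, on either strand (CCGCCC on the other), and GCGTG, one of the cores bound by hypoxia-inducible and dioxin receptor factors. The first window held 2 GC boxes and no response core, and the second held 4 GC boxes and 1 GCGTG. Of 32851 promoter windows of this length, 35.7% held GGGCGG and 43.8% held ACGTG or GCGTG on either strand, ACGTG including every CACGTG. Among the 45 windows found for 38 members, 21 held GGGCGG and 23 held ACGTG or GCGTG. The median GC content was 57% in the windows of members and 52.7% in all windows. These matches describe the letters only.

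Abcb1a (chromosome 5, 8660077 to 8748575) and Abcb1b (8798147 to 8866314, both on the plus strand, mm9) are neighbours and near copies, and how far fragments can be assigned to each depends on how their sequences differ. The coding sequences of 3831 bases each were 88.1% identical over 3822 aligned positions in the annotation of mm9. Of the 100-base stretches of the annotated transcripts of Abcb1a, 7.72% also occurred in Abcb1b or another member, and for Abcb1b the share was 8.65%. The first 100 bases of the longest identical stretch, which is 338 bases long, show where a read of this length cannot be assigned, and a pair of 60-base stretches shows where it can.
Abcb1a coding bases 1357 to 1456, the same as Abcb1b coding bases 1366 to 1465: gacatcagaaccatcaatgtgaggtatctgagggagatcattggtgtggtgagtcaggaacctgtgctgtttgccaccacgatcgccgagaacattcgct
Abcb1a coding bases 1913 to 1972: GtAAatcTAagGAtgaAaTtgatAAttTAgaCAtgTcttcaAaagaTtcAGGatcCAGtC
Abcb1b coding bases 1922 to 1981: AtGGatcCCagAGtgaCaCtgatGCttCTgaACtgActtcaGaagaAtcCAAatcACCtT
Capitals in the last 2 lines mark the 25 of 60 positions that differ. Because reads in the shared stretches could be counted for either gene, the levels of both are uncertain to that extent. Abcg2 and its rodent relative Abcg3 were 69.4% identical, with no identical run above 21 bases, and shared no 100-base stretch.

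The family was expressed unevenly. Of the 50 members, 28 passed the filter on low values, which asked for 1 FPKM or more in 4 or more libraries, and 22 were at 1 or more in all 29 libraries. By subfamily, 6 of 16 Abca, 6 of 10 Abcb, 5 of 10 Abcc, 4 of 4 Abcd, the single Abce, 3 of 3 Abcf and 3 of 6 Abcg genes passed. Of the 22 that did not pass, 21 stayed under 1 FPKM in every library and 17 had a mean under 0.1 over the 29 libraries. The other one was Abcb6, a heme-related porphyrin transporter, which was at 4.22 FPKM in WT CD150hi HSC replicate 2 and at 0.0613 to 1.39 elsewhere. Abcb11 (bile salt export), Abcg5 and Abcg8 (sterol export) and Abcc8 (a potassium channel subunit) were among the lowest. Abcb4, a phosphatidylcholine transporter of liver, passed the filter, with a mean of 1.97 FPKM over the 29 libraries.

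**Figure D1:**
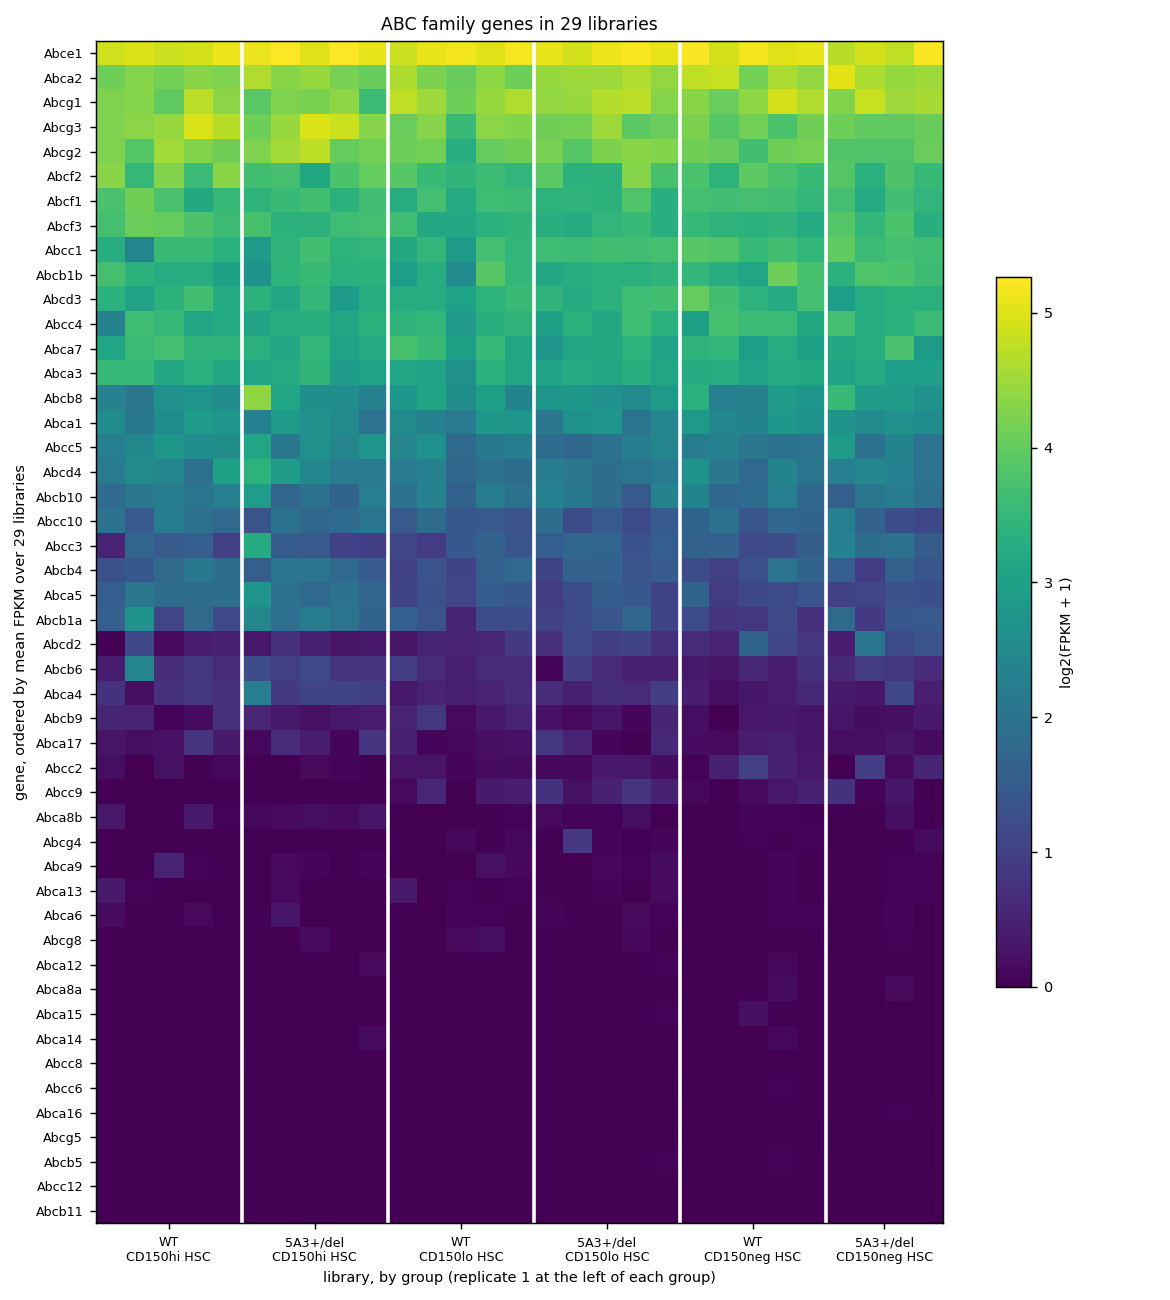
log2(FPKM + 1) of 48 of the 50 ABC genes (rows, by mean over all libraries) in the 29 libraries (columns, grouped by genotype and population; white lines separate groups). Abce1 in the top row is between 24.9 and 37.4 FPKM in every library, and the lowest rows are near 0 throughout.

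Levels ran over a wide range between members. In WT CD150hi HSC, 10 members had a mean of at least 10 FPKM. Abce1, the ATPase that splits ribosomes after termination, was the highest at 30.2 ± 2.40 FPKM (SD, n = 5). It was followed by Abcg3 (22.7 ± 4.90), Abcg1 (19.3 ± 3.96), which exports cholesterol to lipoprotein particles, Abca2 (17.7 ± 1.29), a lipid transporter of late endosomes and lysosomes, and Abcg2 (17.6 ± 3.05). The translation-linked Abcf2, Abcf3 and Abcf1 and the phospholipid transporter Abca7 were also among the 10, down to 10.0 FPKM. Neighbours in this order lay within each other's spread. Across the 6 groups, the ratio of the highest to the lowest group mean was 1.18 for Abce1, 1.19 for Abcf1 and Abca1, 1.41 for Abcg2, 3.34 for Abcb1a, 4.40 for Abcd2 and 5.10 for Abca4. The last 3 were also the most variable within groups, with a median coefficient of variation of 39.7%, 59.3% and 43.6%, against 8.38% for Abce1.

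Abcg2 was expressed in all 3 populations. The 5 WT CD150hi HSC libraries measured 18.1, 13.7, 22.03, 18.1 and 16.3 FPKM, and the 5A3+/del libraries of this population 18.1, 22.03, 25.6, 15.2 and 16.6. In CD150lo HSC the values were 16.2, 16.6, 8.70, 15.2 and 16.5 in WT and 17.1, 13.7, 17.7, 19.1 and 18.3 in 5A3+/del mice. In CD150neg HSC they were 16.4, 15.5, 11.7, 16.4 and 17.2 in WT and 13.2, 13.1, 13.2 and 15.7 in 5A3+/del mice. The highest libraries were CD150hi HSC, but each population overlapped the others. In sorted bulk samples, fewer cells with a transcript and less of it per cell cannot be told apart. Averaged over the genotypes, Abcg2 was higher in CD150hi HSC than in CD150neg HSC by a log2 fold change of 0.36 ± 0.11 (SE; 1.28-fold; adjusted p = 0.0282 by limma). The difference was positive in 7 of 9 mice with both libraries after quantile normalization and in 6 of 9 in deposited FPKM. Counts of mice below are of normalized values, and the count in FPKM is added where it differs. Folds here and below are ratios of normalized FPKM + 1, which understate the differences of low genes. This call was lost when 6 of the mice were left out one at a time (adjusted p up to 0.104). The difference from CD150lo HSC was 0.20 ± 0.11 (95% interval -0.02 to 0.41, adjusted p = 0.317), and that of CD150lo from CD150neg HSC was 0.16 ± 0.11 (-0.06 to 0.38, adjusted p = 0.766).

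Abcb1a was low and differed more. In CD150hi HSC it measured 2.05, 5.49, 1.13, 2.51 and 1.23 FPKM in WT and 4.44, 2.77, 3.66, 3.08 and 2.18 in 5A3+/del mice, from 169 to 928 fragments. In CD150lo HSC the values were 2.07, 1.53, 0.451, 1.30 and 1.33 in WT and 1.02, 1.33, 1.64, 2.44 and 1.09 in 5A3+/del mice. In CD150neg HSC they were 1.25, 0.767, 0.787, 1.35 and 0.669 in WT and 2.54, 0.833, 1.70 and 1.76 in 5A3+/del mice. The WT CD150hi library at 5.49 is one of the 2 that stood apart, and the populations overlapped. Abcb1a was higher in CD150hi HSC than in CD150neg HSC by 0.69 ± 0.18 on the log2 scale (1.61-fold, adjusted p = 0.0106) in 9 of 9 mice, and higher than in CD150lo HSC by 0.63 ± 0.18 (1.54-fold, adjusted p = 0.0266) in 9 of 10 mice (8 in FPKM). Without the 2 libraries that stood apart, the first difference was 0.49 (adjusted p = 0.0297) and the second 0.43 (adjusted p = 0.0814), so that the second was no longer called. With each mouse left out in turn, the call against CD150neg HSC was kept (adjusted p up to 0.0468), and that against CD150lo HSC was lost for 4 mice (adjusted p up to 0.088).

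Abcb1b was several times higher than Abcb1a and did not share its order. Its means were 9.04 ± 1.80 FPKM in CD150hi HSC (SD, n = 10), 8.88 ± 2.32 in CD150lo HSC (n = 10) and 11.3 ± 2.65 in CD150neg HSC (n = 9). The libraries ran from 4.82 to 16.2 FPKM and overlapped in all 3 populations. The log2 difference between CD150hi and CD150neg HSC was -0.25 ± 0.15 (95% interval -0.55 to 0.06, adjusted p = 0.317), and that between CD150hi and CD150lo HSC was 0.01 ± 0.14 (-0.28 to 0.31, adjusted p = 0.974). Whether Abcb1a and Abcb1b differ in their response was not tested. On the opposite strand, the noncoding gene Gm5106 overlaps 143 exon bases of Abcb1b (3.29%), and the table does not state that counting used the strand.

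**Figure D2:**
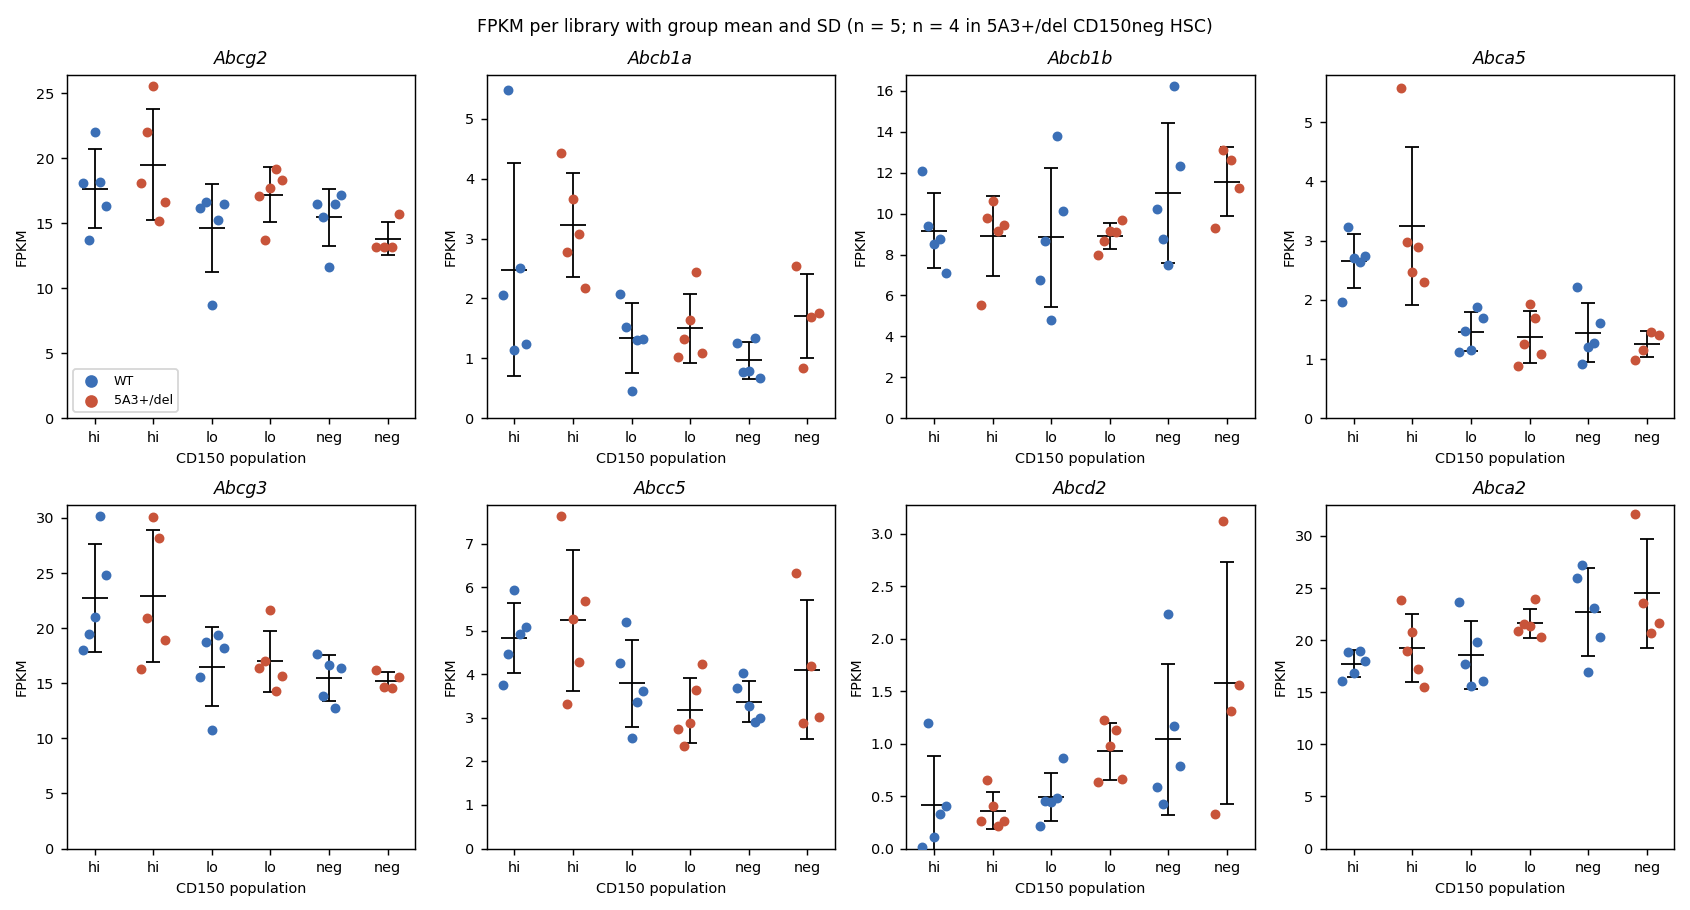
FPKM (vertical axes, from 0) of 8 ABC genes in each library by CD150 population (horizontal axes), with WT in blue and 5A3+/del in red. Black marks are group means and bars are SD. Abca5 and Abcb1a are higher in CD150hi HSC, Abcd2 and Abca2 are lower there, and WT and 5A3+/del points overlap in each population.

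The comparison of populations asks which members follow CD150, the marker along which stem cells with the strongest self-renewal are separated from multipotent progenitors. Between CD150hi HSC and CD150neg HSC, 10 of the 28 members tested were called: 7 were higher and 3 lower in CD150hi HSC. Abca4, called higher, would not have passed the filter without its CD150hi libraries, nor Abcd2, called lower, without its CD150neg libraries. Their calls are therefore not independent of the filter. With any 1 mouse left out the count was 4 to 8, the lowest without 5A3+/del mouse 4. Over all 15409 genes tested, 13.2% were called, 6.99% higher and 6.2% lower. The median log2 difference was 0.13 over the members and -0.00459 over all genes. Between CD150hi HSC and CD150lo HSC, 5 members were called, all higher in CD150hi HSC, against 7.64% of all genes (4.23% higher and 3.41% lower), with a median of 0.10 over the members and -0.00524 over all genes. With any 1 mouse left out, 2 to 6 were called, the lowest without WT mouse 4. Between CD150lo HSC and CD150neg HSC, 0 members were called by limma, and 2 had an unadjusted p under 0.05, against 0.292% and 7.93% of all genes. One of them was Abcd2, which had lower values in CD150lo HSC (-0.41, adjusted p = 0.562). The shares of all genes called with a mouse left out are not given. The members were chosen by symbol with earlier results known, so the counts and shares here are descriptions.

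Abca5, a transporter of lysosomes and late endosomes, was the most stable of these. It measured 1.96, 3.22, 2.70, 2.64 and 2.74 FPKM in WT CD150hi HSC and 5.57, 2.97, 2.47, 2.89 and 2.31 in the same population of 5A3+/del mice. In CD150lo HSC it lay between 0.879 and 1.93 and in CD150neg HSC between 0.914 and 2.22. The CD150hi libraries lay above all CD150lo libraries, and after quantile normalization they also lay above all CD150neg libraries. No overlap in normalized values was found for this 1 member in each comparison, against 2.6% of genes for CD150neg HSC and 1.1% for CD150lo HSC. The log2 fold change was 0.74 ± 0.12 against CD150neg HSC (1.67-fold, adjusted p = 6.19e-05, 9 of 9 mice, 8 in FPKM) and 0.69 ± 0.12 against CD150lo HSC (1.61-fold, adjusted p = 0.000195, 10 of 10 mice). These folds are of FPKM + 1, and the mean FPKM was 2.95 in CD150hi, 1.42 in CD150lo and 1.36 in CD150neg HSC. Leaving out each mouse in turn kept both calls, with adjusted p up to 0.00127.

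Abcg3 encodes a protein known from rodents and related to Abcg2. The CD150hi libraries measured 18.0, 19.5, 21.0, 30.2 and 24.9 FPKM in WT and 16.3, 20.9, 30.1, 28.2 and 18.9 in 5A3+/del mice. Those of CD150lo HSC ran from 10.7 to 21.6 and those of CD150neg HSC from 12.7 to 17.7. All but one of the CD150hi libraries were above every CD150neg library. Abcg3 was higher in CD150hi HSC than in CD150neg HSC by 0.56 ± 0.13 (1.47-fold, adjusted p = 0.00238, 9 of 9 mice) and than in CD150lo HSC by 0.40 ± 0.12 (1.32-fold, adjusted p = 0.0421, 9 of 10 mice). The second call was lost when any of 8 mice was left out, with adjusted p up to 0.153.

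Among the drug and conjugate exporters, 8 of 9 were tested, and 3 were higher (Abcb1a, Abcg2 and Abcc5) and 1 lower (Abcc1) in CD150hi HSC than in CD150neg HSC. Abcc5, an exporter of cyclic nucleotides, ran from 3.33 to 7.63 FPKM in CD150hi HSC, against 2.36 to 5.20 in CD150lo HSC and 2.88 to 6.33 in CD150neg HSC. The populations overlapped, and the log2 fold changes were 0.39 ± 0.12 (adjusted p = 0.0359) against CD150neg HSC and 0.41 ± 0.12 (adjusted p = 0.0292) against CD150lo HSC. Without the 2 libraries that stood apart, neither was called (adjusted p = 0.087 and 0.0787). Single mice also ended both calls (adjusted p up to 0.0952 and 0.112). Abcc1, which exports leukotrienes and glutathione conjugates, was lower by -0.36 ± 0.12 (adjusted p = 0.0442) than in CD150neg HSC in 9 of 9 mice (8 in FPKM). With each mouse as the replicate block its adjusted p was 0.069, and without the 2 libraries the difference was -0.20 (adjusted p = 0.113). Its libraries ran from 4.36 to 11.6 FPKM in CD150hi HSC and from 10.1 to 14.7 in CD150neg HSC, and the call was lost when any of 8 mice was left out (adjusted p up to 0.162). Abcc3, Abcc4 and Abcc10 were between -0.23 and 0.25 on the log2 scale and were not called.

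In the lipid transporters, 6 of 9 were tested. Abcb4, which moves phosphatidylcholine in liver, was higher in CD150hi HSC than in CD150neg HSC by 0.37 ± 0.13 (adjusted p = 0.0496, 9 of 9 mice), at 1.47 to 3.37 FPKM against 0.916 to 3.01. This call lay at the threshold and was lost in 16 of 20 alternative fits. Abca2 was lower by -0.29 ± 0.09 (0.820-fold, adjusted p = 0.0263) in 9 of 9 mice (8 in FPKM), at 15.5 to 23.8 FPKM against 16.9 to 32.1, with overlap. Leaving out 6 of the mice one at a time ended this call (adjusted p up to 0.0681). Abca1, Abca3, Abca7 and Abcg1, of which Abca1 and Abcg1 are the cholesterol exporters, were not called, with log2 differences from -0.27 to 0.15.

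Abca4, the transporter of retinal photoreceptors, was higher in CD150hi HSC than in CD150neg HSC by 0.49 ± 0.14 (adjusted p = 0.02). Its WT CD150hi libraries lay at 0.145 to 0.771 FPKM and those of 5A3+/del mice at 0.861 to 3.77, against 0.139 to 1.20 in CD150neg HSC. Only 4 libraries were at 1 FPKM or more, at 3.77, 1.13 and 1.13 in 5A3+/del CD150hi HSC and 1.20 in 5A3+/del CD150neg HSC. Abca4 passed the filter only through these, so its call is not independent of the filter. The library at 3.77 is replicate 1, which stood apart. Without both libraries that stood apart the difference was 0.36 (adjusted p = 0.0118), and without WT mouse 4 or 5A3+/del mouse 4 the call was lost (adjusted p up to 0.0615).

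Abcd2, a fatty acid importer of peroxisomes, was lower in CD150hi HSC than in CD150neg HSC by -0.63 ± 0.18 (0.646-fold, adjusted p = 0.0188), in 7 of 9 mice (8 in FPKM). It measured 0.0143, 1.20, 0.113, 0.330 and 0.407 FPKM in WT CD150hi HSC, the lowest of these from 2 fragments, and 0.265, 0.650, 0.403, 0.217 and 0.262 in the 5A3+/del libraries. In CD150neg HSC it lay between 0.331 and 3.12. Abcd2 was at 1 FPKM or more in 8 libraries and would not have passed the filter without those of CD150neg HSC. Its call is therefore not independent of the filter. At these levels the pseudocount of 1 sets the size of the difference, which was -1.53 with a pseudocount of 0.1. Leaving out any of 5 mice ended the call, with adjusted p up to 0.0833. The peroxisomal Abcd3 and the lysosomal cobalamin transporter Abcd4 were not called, with differences of -0.10 and 0.30.

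Abcb8 and Abcb10, transporters of mitochondria, were not called by limma in any comparison of populations. Against CD150neg HSC, the log2 difference of CD150hi HSC was -0.10 ± 0.19 (95% interval -0.48 to 0.28, adjusted p = 0.804) for Abcb8 and 0.14 ± 0.15 (-0.17 to 0.44, adjusted p = 0.636) for Abcb10. Of the 4 genes Abce1, Abcf1, Abcf2 and Abcf3, only Abcf3 was called. It was higher in CD150hi HSC than in CD150lo HSC by 0.32 ± 0.08 (1.25-fold, adjusted p = 0.011, 9 of 10 mice), and its difference from CD150neg HSC was 0.24 ± 0.08 (adjusted p = 0.0518). The values of Abcf3 were 12.1, 16.0, 15.3, 12.9 and 11.2 FPKM in WT and 12.3, 9.50, 9.48, 11.3 and 11.9 in 5A3+/del CD150hi HSC, with the WT libraries higher on average. Without WT replicate 2 the call against CD150lo HSC was lost (0.27, adjusted p = 0.0561).

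**Figure D3:**
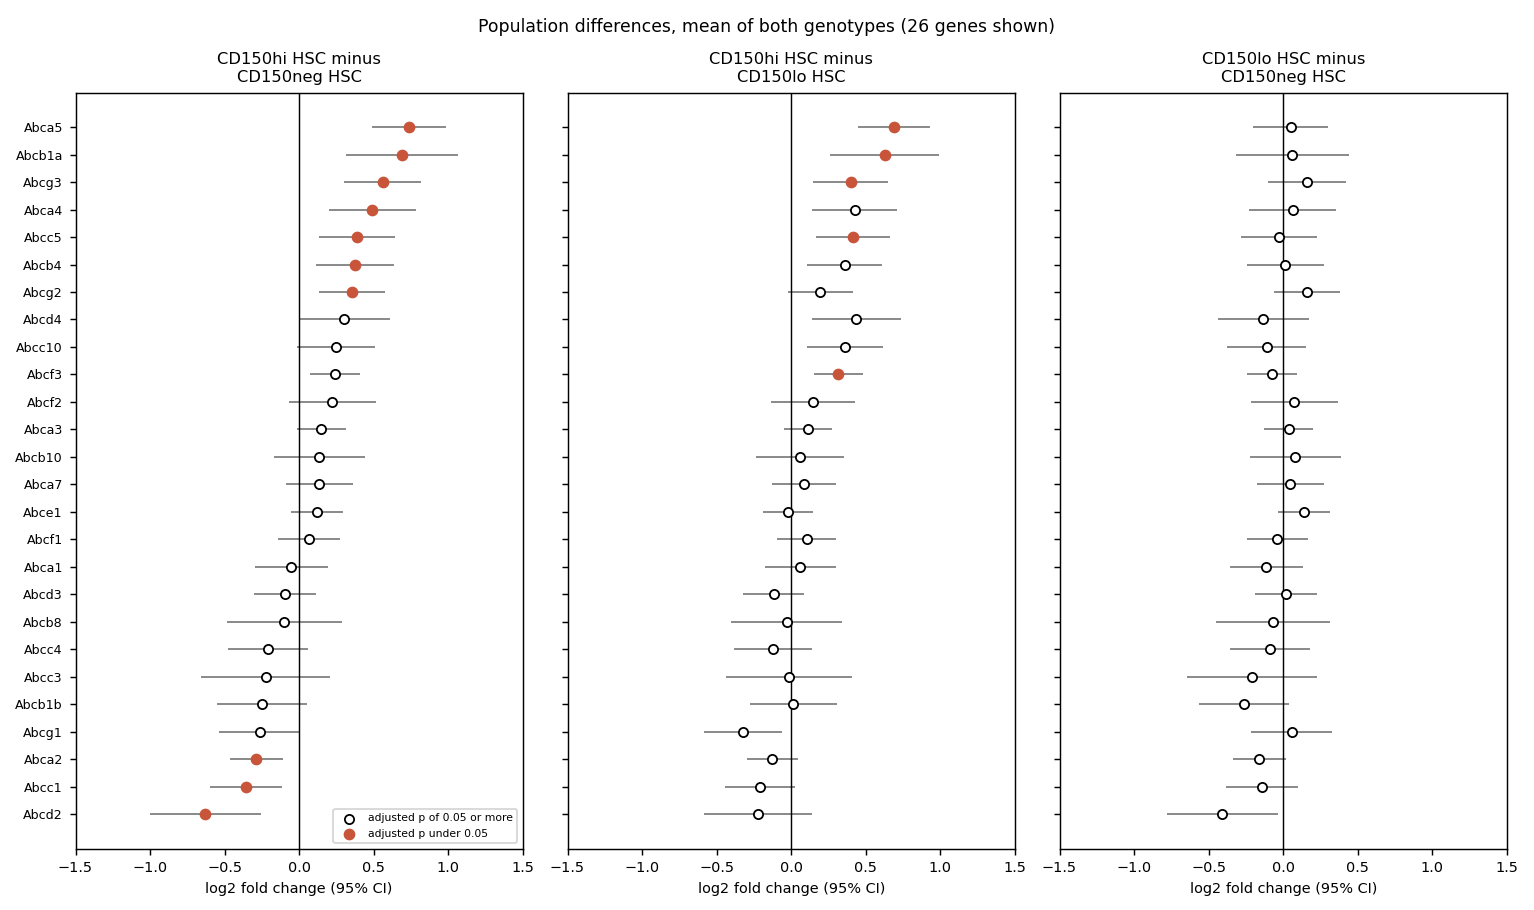
log2 fold changes between populations (horizontal axes) with 95% confidence intervals for 26 of the 28 ABC genes tested (rows, in the order of the left panel). Filled red points are called at adjusted p under 0.05: 10 in the left panel, 5 in the middle and 0 on the right.

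Within one genotype fewer members were called. Between CD150hi and CD150neg HSC, 3 were called in WT mice (against 10% of all genes) and 1, Abca5, in 5A3+/del mice (6.16%). Between CD150hi and CD150lo HSC, 1 was called in each genotype, Abcf3 in WT mice and Abca5 in 5A3+/del mice, against 3.53% and 3.18% of all genes. Whether the population differences themselves changed with genotype was tested as an interaction, in which 0 members and 0% of all genes were called by limma in each of the 3 comparisons. At an unadjusted p under 0.05 there were 2 members between CD150hi and CD150neg HSC, 0 between CD150hi and CD150lo HSC and 1 between CD150lo and CD150neg HSC, against 7.96%, 3.98% and 5% of all genes.

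Members that did not pass the filter were looked at by their values. Abcc9, a potassium channel subunit also known from smooth muscle and pericytes, had 0 to 2 fragments in each of the 10 CD150hi libraries (at most 0.0104 FPKM), which is under the floor of 3. It had 3 to 138 fragments in the 10 CD150lo libraries (0.0159 to 0.731 FPKM) and 1 to 130 in the 9 CD150neg libraries (0.00422 to 0.701 FPKM). All CD150hi values lay under all CD150lo values, and they overlapped those of CD150neg HSC. When no filter was applied, Abcc9 was called between CD150hi and CD150lo HSC (adjusted p = 0.0101 by limma). In 5A3+/del mice alone it was called (adjusted p = 0.0324), and in WT mice alone it was not (adjusted p = 0.521). The shares of all unfiltered genes that were called or did not overlap are not given, so these values are a description. The summed FPKM of 4 stromal and endothelial markers was 0.00533 to 1.20 in CD150hi HSC, 0.164 to 1.77 in CD150lo HSC and 0.0200 to 1.83 in CD150neg HSC, and their part in this difference was not tested. Abcc9 was chosen for this description after its values were seen.

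The comparison of genotypes asks whether loss of one copy of the interval altered the family. None of the 50 members lies in the deleted interval, and 7 lie elsewhere on chromosome 5. The nearest were Abcb8 (23899481 to 23915872, 717 kb beyond Srpk2) and Abcf2 (24071161 to 24083217, 889 kb beyond), while Abcb1a, Abcb1b and Abcb4 lie about 12 Mb on the other side, and Abcg3 and Abcb9 lie farther away. In CD150hi HSC 0 of 28 members were called by limma, against 0.156% of all genes, in CD150lo HSC 0, against 0.0324%, and in CD150neg HSC 0, against 0.0454%. At an unadjusted p under 0.05 there were 2, 0 and 1 members, against 13.1%, 6.87% and 4.27% of all genes. After quantile normalization, the WT and 5A3+/del libraries failed to overlap in 0 members, against 2.58%, 1.63% and 1.51% of all genes. In deposited FPKM they failed to overlap in 1 member in CD150hi HSC, Abca4, and in 0 in the others, against 2.37%, 1.49% and 1.49% of all genes. Abca4 passed the filter only through 5A3+/del libraries, so its place in these counts is not independent of the filter. The median log2 difference over the members was 0.04, 0.04 and 0.05.

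For Abcg2, the log2 difference between 5A3+/del and WT was 0.13 ± 0.15 (95% interval -0.18 to 0.43, adjusted p = 0.769) in CD150hi HSC, 0.24 ± 0.15 (95% interval -0.07 to 0.55, adjusted p = 0.86) in CD150lo HSC and -0.14 ± 0.16 (95% interval -0.46 to 0.19, adjusted p = 0.9998) in CD150neg HSC. For Abcb1a it was 0.42 ± 0.25 (95% interval -0.10 to 0.94, adjusted p = 0.495) in CD150hi HSC, 0.10 ± 0.25 (95% interval -0.41 to 0.62, adjusted p = 0.988) in CD150lo HSC and 0.46 ± 0.27 (95% interval -0.09 to 1.01, adjusted p = 0.9998) in CD150neg HSC. WT and 5A3+/del libraries overlapped in each case. With 4 or 5 mice per group, differences of any size within these intervals remain compatible with the values.

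The 3 members with an unadjusted p under 0.05 were Abca4 and Abcf3 in CD150hi HSC and Abcd3 in CD150neg HSC. Abca4 was higher in 5A3+/del mice by 0.53 ± 0.20 (adjusted p = 0.227), with replicate 1 at 3.77 FPKM and the other 4 at 0.861 to 1.13. It passed the filter only through libraries of 5A3+/del mice. Abcf3 was lower by -0.27 ± 0.11 (adjusted p = 0.3). Abcd3, which imports branched-chain fatty acids into peroxisomes, was lower by -0.35 ± 0.15 (adjusted p = 0.9998), at 6.68 to 9.50 FPKM against 8.47 to 15.2 in WT mice.

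On chromosome 5, Abcb8 measured 4.04, 3.27, 5.36, 5.61 and 5.00 FPKM in WT and 19.9, 7.60, 5.10, 5.00 and 3.95 in 5A3+/del CD150hi HSC. A single library, replicate 1, was far above the other 9, which overlapped. The log2 difference was 0.51 ± 0.26 (adjusted p = 0.408). Abcf2 measured 19.1, 10.4, 18.3, 11.0 and 19.0 FPKM in WT and 11.7, 12.0, 8.23, 12.7 and 15.2 in 5A3+/del CD150hi HSC. Their log2 difference was -0.33 ± 0.19 (adjusted p = 0.495). Abcb9, a lysosomal peptide transporter, did not pass the filter and lay between 0.0111 and 0.816 FPKM over all libraries.

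**Figure D4:**
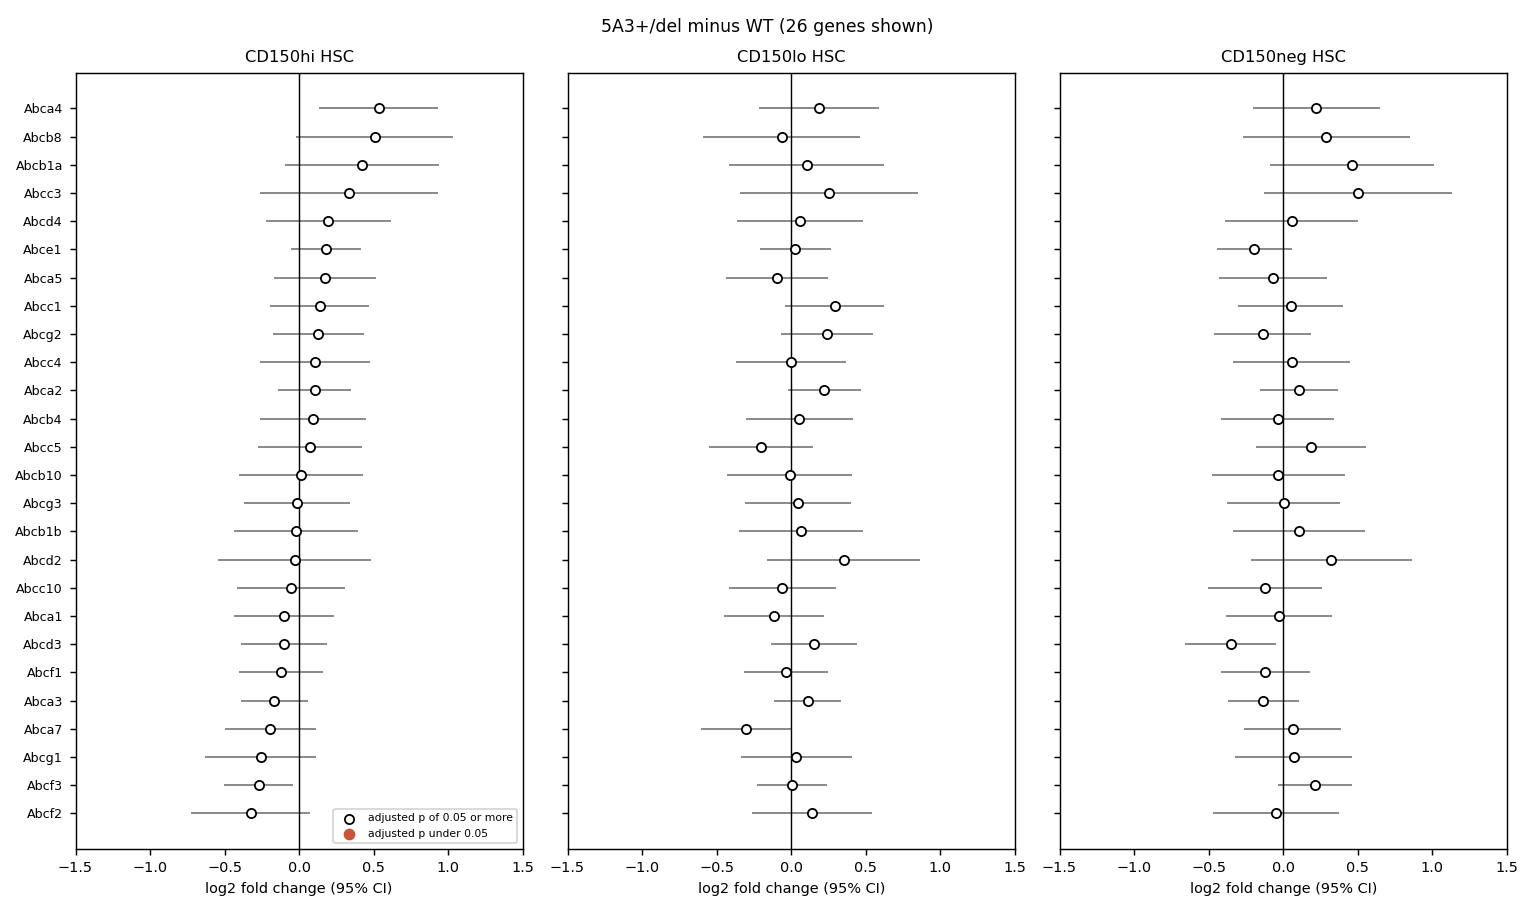
log2 fold changes of 5A3+/del against WT (horizontal axes) with 95% confidence intervals for 26 of the 28 ABC genes tested (rows, in the order of the left panel) in the 3 populations. No point is called at adjusted p under 0.05, and most intervals cross 0.

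The genes around the family were taken from lists of partners and regulators, whose counts stand beside 6.99% of all genes called higher and 6.2% lower in CD150hi HSC than in CD150neg HSC, and 4.23% and 3.41% against CD150lo HSC. Of 13 genes of the LXR and sterol pathway, 13 were tested, and between CD150hi and CD150neg HSC 1 was higher and 1 lower. Apoe, the lipid carrier that accepts cholesterol from Abca1 and Abcg1, was higher in CD150hi HSC by 2.31 ± 0.15 (adjusted p = 6.65e-12) than in CD150neg HSC and by 1.42 ± 0.15 (adjusted p = 1.04e-07) than in CD150lo HSC. Npc1, which releases cholesterol from lysosomes, was lower by -0.70 ± 0.10 (adjusted p = 1.23e-05) and -0.57 ± 0.10 (adjusted p = 0.000259). Among 12 regulators of efflux genes, 10 were tested, and 3 were higher in CD150hi HSC than in CD150neg HSC, namely Epas1 (1.14 ± 0.29), which encodes a hypoxia-inducible factor, Ahr (0.58 ± 0.15), which encodes the dioxin receptor, and Foxo1 (0.57 ± 0.13), whereas Foxo3 was lower (-0.30 ± 0.07). Against CD150lo HSC, 2 of them, Epas1 (1.18 ± 0.28) and Ahr (0.61 ± 0.15), were higher. Epas1 ran from 0.665 to 15.9 FPKM in CD150hi HSC, against 0.0993 to 1.10 in CD150lo HSC and 0.102 to 1.68 in CD150neg HSC. Its mean in 5A3+/del CD150hi HSC was 4.38 ± 6.42 FPKM (SD, n = 5), so the spread exceeded the mean.

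Of 16 genes of heme and iron-sulfur metabolism, 15 were tested, and Slc25a37, the mitochondrial iron importer, was lower in CD150hi HSC (-0.41 ± 0.10 against CD150neg HSC, adjusted p = 0.00706, and -0.34 ± 0.10 against CD150lo HSC, adjusted p = 0.036). The lists for ribosome recycling and initiation (9 tested), peptide loading (6), peroxisomes (9) and the other ABC proteins (2 of 3 tested) had 0 called members by limma in either comparison. Cftr did not pass the filter and was not tested. It ran from 0.282 to 1.58 FPKM in CD150hi HSC, above all CD150lo (0 to 0.195) and CD150neg libraries (0 to 0.0708). The share of unfiltered genes without overlap is not given, so these values are a description. Between genotypes, 0 genes of these lists were called in any population, and between CD150lo and CD150neg HSC only Apoe was (0.90 ± 0.15, adjusted p = 0.00386).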

How the data were processed

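The authors sequenced amplified RNA from sorted cells with paired 100-base reads and deposited 1 table of FPKM values on mm9. The submitters' processing notes name Bowtie 0.12.2 and HTSeq. The study's own measure, the coverage of the highest covered exon, was not used here. Groups came from the genotype and cell type in the labels, and mice from the animal code.

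Of the gene identifiers, 29279 (97.5%) matched the GENCODE annotation of mm9, used for positions and exon lengths. FPKM times exon length gave steps from which fragments per library were computed, and 98.2% to 98.7% of the low values were whole within 0.02. Counting error says nothing of duplicates made by amplification, since PCR fragments are not independent molecules.

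From the deposited FPKM, 15409 genes with 1 or more in 4 or more libraries entered the tests. Their values were taken as log2(FPKM + 1) and then quantile normalized. With limma 3.58.1 in R 4.3.3, 1 model with a mean for each of the 6 groups was used for all 29 libraries. Tests were two-sided with Benjamini-Hochberg adjustment over all 15409 genes, and a gene was called at an adjusted p under 0.05. Fold changes are on the log2(value + 1) scale and understate those of low genes. Population contrasts are the mean of both genotypes. The populations share mice: libraries of the same mouse deviated together with a median correlation of 0.0786 (-0.0418 to 0.235, 28 pairs), against -0.0250 for different mice. WT and 5A3+/del libraries with the same number are different mice.

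The members and lists were chosen with earlier results of these data known. Named genes are Abcg2, Abcb1a and Abcb1b, the 10 highest members in WT CD150hi HSC, members called in a contrast and members on chromosome 5. A few members are counted but not reported here by name. Other members are named only with values, and Abcb6 and Abcc9 were chosen after their values were seen. Promoter windows came from RefSeq for GRCm38.p6.

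In simulated data with 200 of 15409 genes changed by 1 on the log2 scale, 131 were called for 5A3+/del against WT in CD150hi HSC and 171 for CD150hi HSC against CD150neg HSC, with 5 and 12 unchanged genes called. The simulated noise was independent between libraries, without a shared effect of the mouse. All members tested differed by less than 1 in these comparisons, and changes between 0 and 1 were not simulated. Alternatives covered the pseudocount, filter, scaling, variance prior, samples in the fit, age, pairing and each mouse left out. Python 3.11.15 and pandas 2.3.3 were used.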

Additional observations from a re-analysis of the deposited data

Results flagged for a closer look

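Of 114 groups of 4 or 5 libraries examined for the members chosen by the naming rule, 11 held a library far from the rest. Distance was judged by the gap to the nearest library over the range of the group, whatever its size in FPKM. A rate of 1 in 20 would give 5.7. The same libraries recur across members, so the groups are not independent and this rate is only a guide. Values here are quantile-normalized FPKM. In 5A3+/del CD150hi HSC, replicate 1 was apart for Abca4 (4.04, others 0.799 to 1.08), Abca5 (5.68, others 2.12 to 3.04), Abcb8 (19.1, others 3.98 to 7.69), Abcb1b (5.64, others 9.51 to 10.3) and Abcc1 (6.40, others 9.87 to 11.2). In WT CD150hi HSC, replicate 2 was apart for Abcb1a (5.71, others 0.902 to 2.28), Abcc1 (4.66, others 9.14 to 10.8) and Abcd2 (1.64, others 0.0656 to 0.402). These are the 2 libraries with the lowest correlation to their groups. The remaining 3 were Abcd2 in WT CD150neg HSC replicate 3 (2.45, others 0.482 to 0.954), Abcg2 in 5A3+/del CD150lo HSC replicate 2 (14.3, others 18.0 to 18.8) and Abcg3 in 5A3+/del CD150neg HSC replicate 4 (16.0, others 14.6 to 14.7).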

How the results depend on the processing

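The count of members called between genotypes and in the tests of interaction stayed at 0 in every alternative run, each mouse left out included (0 to 0), and so did CD150lo HSC against CD150neg HSC. Between CD150hi and CD150neg HSC, 10 members became 5 with a filter of 10 FPKM in 1 library, which left 17 members to test, 4 when only the groups compared were fitted, 3 in WT mice alone and 1 in 5A3+/del mice alone. Leaving out each mouse gave 4 to 8, with 4 without 5A3+/del mouse 4, 5 without WT mouse 4 or 5A3+/del mouse 2, and 6 without WT mouse 1, WT mouse 3 or 5A3+/del mouse 3. Between CD150hi and CD150lo HSC, 5 became 2 with that filter, 3 when only the groups compared were fitted, 3 without the 2 libraries that stood apart (chosen after seeing the data), and 1 in each genotype alone. Leaving out each mouse gave 2 to 6, with 2 without WT mouse 4 and 3 without WT mouse 3, WT mouse 5 or 5A3+/del mouse 3. Fewer members were tested under the filter and fewer libraries entered the other fits. Except for the fits of each genotype alone, the shares of all genes called in these alternatives are not given. A change in these counts therefore cannot be told apart from a change over all genes.

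With the mouse as the replicate block, 9 members were called between CD150hi and CD150neg HSC and 6 between CD150hi and CD150lo HSC. The shares of all genes called in that fit are not given. With the replicate number as the replicate block, 0 were called between genotypes, and WT and 5A3+/del libraries of one number share only that number (correlation of deviations at most 0.0807 in 14 pairs). Directions turned only for differences near 0 that were not called. For Abcb1a, 5A3+/del against WT in CD150lo HSC ran from -0.0233 to 0.215 over the mice left out, the lowest without WT mouse 3, and CD150lo against CD150neg HSC ran from -0.0168 (without 5A3+/del mouse 2) to 0.152 and was -0.117 in 5A3+/del mice alone. For Abcg2, CD150lo against CD150neg HSC was -0.0302 in WT mice alone. Members under 1 FPKM rest on few fragments, and their fold changes depend on the pseudocount.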
